A study of Mus musculus with 36 samples.

Results

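Immediate early genes were examined across fetal neural stem cells (NSCs) and the extracellular vesicles (EVs) they secreted. The genes were Fos, Fosb, Jun, Junb, Egr1, Ier2, Dusp1, Arc and Npas4, taken by name, and all 9 were among the 40205 features listed for each library. Immediate early genes are transcribed within minutes of a stimulus from factors that are already present in the cell, such as the serum response factor and CREB, and need no new protein synthesis. Their messages are mostly short-lived. In the brain they are known as markers of neuronal activity, and in dividing progenitors they respond to growth factors and stress through the MAP kinase cascade. Fos, Fosb, Jun and Junb encode subunits of the AP-1 transcription factor, in which a Fos protein pairs with a Jun protein. Egr1 and Npas4 encode transcription factors, Npas4 being largely neuronal and induced by calcium entry. Ier2 encodes a small nuclear protein. Dusp1 encodes a phosphatase that switches MAP kinases off, and Arc encodes a synaptic protein that can form capsid-like particles and travel between cells in EVs.

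The cells were neurosphere cultures from the dorsal telencephalon of gestational day 12.5 mice, used between passages 7 and 10. They are labelled WT and C57BL/6J, and the study's methods give the mice as C57BL/6J (Ai14), a line with a Cre-dependent fluorescent reporter. Fetuses of 1 sex within a pregnancy were pooled, so the 3 pregnancies (sets 3, 4 and 5) gave 6 cultures, 1 female and 1 male culture for each set. Each culture was kept for 5 days with 0, 120 or 320 mg/dL ethanol (0, 26 and 70 mM), and each condition gave 1 cell library and 1 EV library, 36 in all. A group of one sex, dose and source thus held 3 libraries, 1 from each pregnancy, and the 6 libraries of a dose within cells or EVs came from 6 cultures. Total counts ran from 26.6 M to 55.3 M (mega, 10 to the power of 6) in cells and from 0.959 M to 5.51 M in EVs, and the 9 genes together made up between 0.0185% and 0.242% of the counts in cells and between 0.00291% and 0.0198% in EVs. Of the neural stem cell markers, 9 of 10 had counts. Sox2 was listed at 0 in every library, but its gene lies within Sox2ot on the same strand, and reads that meet overlapping genes may not be counted, so this 0 is no measure of its expression. The summed level of the 10 stem cell markers was 2676 to 4153 CPM (counts scaled to library size) in cells, against 440 to 935 CPM for 12 neuron markers. Summed levels were 92.3 to 602 CPM for 6 astrocyte markers and 66.0 to 190 CPM for 7 oligodendrocyte lineage markers. They were 2.702 to 5.71 CPM for 8 microglia and blood markers and 2.18 to 6.26 CPM for 6 endothelial markers. For 6 meningeal fibroblast and mural markers they were 0.652 to 3.09 CPM, and for 6 erythroid markers 0.0306 to 0.197 CPM. Aqp4 (astrocyte), P2ry12 (microglia) and Alas2 (erythroid) were also listed at 0 in every library. In bulk RNA, fewer cells of a type and less RNA per cell cannot be told apart.

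The promoters of the AP-1 genes are shown first, because Fosb, Fos and Junb had the largest differences between cells and EVs of the 9 genes. Each is 300 bases long, from 250 bases before the annotated start to 50 bases after it, taken 5′ to 3′ on the gene's strand from RefSeq (GRCm38.p6), and each matched a single place on its GRCm39 chromosome: Fos at chr12:85520414-85520713 (plus strand), Fosb at chr7:19043921-19044220 (minus), Junb at chr8:85705328-85705627 (minus) and Jun at chr4:94940410-94940709 (minus). Capitals mark matches, on either strand, to the CREB core site TGACG or to the TATA box TATAAA.
Fos: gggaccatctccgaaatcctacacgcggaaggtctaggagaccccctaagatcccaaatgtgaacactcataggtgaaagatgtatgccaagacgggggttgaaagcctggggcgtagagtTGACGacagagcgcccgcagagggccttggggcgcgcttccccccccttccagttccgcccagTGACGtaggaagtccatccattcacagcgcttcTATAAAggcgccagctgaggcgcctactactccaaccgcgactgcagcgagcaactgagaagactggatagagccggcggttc
Fosb: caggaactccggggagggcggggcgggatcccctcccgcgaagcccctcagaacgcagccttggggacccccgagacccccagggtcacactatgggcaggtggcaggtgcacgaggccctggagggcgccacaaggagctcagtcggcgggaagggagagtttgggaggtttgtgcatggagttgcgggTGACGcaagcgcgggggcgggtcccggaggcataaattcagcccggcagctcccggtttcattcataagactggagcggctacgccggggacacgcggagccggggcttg
Junb: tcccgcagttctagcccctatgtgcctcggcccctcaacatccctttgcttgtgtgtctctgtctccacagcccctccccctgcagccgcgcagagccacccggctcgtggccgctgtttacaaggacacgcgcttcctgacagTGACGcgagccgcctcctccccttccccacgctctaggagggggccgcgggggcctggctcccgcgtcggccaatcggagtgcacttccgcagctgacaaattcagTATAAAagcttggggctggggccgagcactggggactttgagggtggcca
Jun: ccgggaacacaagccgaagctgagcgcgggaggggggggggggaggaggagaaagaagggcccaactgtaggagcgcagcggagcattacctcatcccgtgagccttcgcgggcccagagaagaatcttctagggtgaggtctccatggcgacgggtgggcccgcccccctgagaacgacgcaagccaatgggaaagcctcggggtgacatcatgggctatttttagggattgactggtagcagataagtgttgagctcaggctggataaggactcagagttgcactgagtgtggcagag

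The Fos promoter held 2 core sites, whose first bases lay 129 and 66 bases before the annotated start, and a TATA box 33 bases before it. Fosb held 1 core site 60 bases before the start, and Jun none. Junb held 1 core site 106 bases before its annotated start and a TATA box whose first base lay at that start. The table also held the promoters of Dusp1, with 3 core sites of which 2 formed the full site TGACGTCA 143 bases before the start, and of Npas4, with 2 core sites, and so of 6 of the 9 genes, without Arc, Egr1 and Ier2. The core site was present in 20.8% of all 32851 promoters of the same length, the full site in 1.79% and the TATA box in 13.6%. No match to the AP-1 site TGACTCA (5.20% of all promoters) or to a CArG box (1.63%), the serum response factor's motif, was found in these 6 windows. Sites more than 250 bases before the start were not searched. Near matches, such as TGACATCA in the Jun window, were not counted. The absence of a match thus does not show that a gene lacks such a site.

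The gene models had few exons. Jun, Junb and Ier2 had a single exon, as did 4.59% of the 19247 protein-coding genes of the files found in GENCODE, and the other 6 genes had between 2 and 8. Canonical transcripts ran from 1524 bases (Ier2) to 4496 bases (Egr1), against a median of 3030 bases, with 5 of the 9 above it and 4 below. The AUUUA pentamer, a core of the AU-rich elements that shorten the life of many immediate early messages, occurred at 5.80 per kb of 3′ untranslated region in Dusp1, 4.91 in Fos, 4.12 in Junb and 3.24 in Jun, against a median of 1.21 over 18715 genes. Egr1 (1.63) and Npas4 (1.40) lay near that median and Fosb (0.466) below it. The pentamer did not occur in the 3′ untranslated regions of Ier2 and Arc. Jun overlaps the antisense gene Junos and Junb overlaps Gm65321 on the opposite strand, and how strand was handled in counting is not given in the sources used here, so reads of these pairs may not be separable.

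In cells the transcripts differed widely in abundance, and most of the spread of each gene over the cell libraries lay between cultures. Levels per length (CPM per kb of canonical transcript, mean ± SD of 18 cell libraries) were highest for Fos (85.9 ± 125) and Jun (66.7 ± 33.5). Egr1 (25.6 ± 19.2), Junb (22.5 ± 21.7), Ier2 (19.3 ± 20.7), Arc (14.5 ± 15.2) and Fosb (11.8 ± 12.6) followed, and Dusp1 (5.31 ± 3.46) and Npas4 (1.17 ± 0.816) were lowest. Neighbours in this order differed by less than their SDs, except Jun from Egr1 and Dusp1 from Npas4. The first place of Fos came from the female set 5 culture: Jun was above Fos per length in 5 of 6 cultures, and the medians of the 18 libraries were 64.0 for Jun and 36.6 CPM per kb for Fos. In EVs the order by the same measure began with Jun (13.4 ± 4.31), Egr1 (6.16 ± 1.59) and Fos (5.87 ± 2.47), followed by Ier2 (4.10 ± 1.32), Arc (2.37 ± 0.744), Junb (2.18 ± 1.25), Dusp1 (1.42 ± 0.587), Fosb (0.630 ± 0.301) and Npas4 (0.445 ± 0.404), and there the neighbours Jun and Egr1, Ier2 and Arc, and Dusp1 and Fosb differed by more than their SDs. All values below are CPM with no correction for length, scaled by TMM over the 36 libraries.

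The question of how the cultures differed was asked after the levels had been seen. Fos was measured in cells at 21.3, 26.0 and 20.4 CPM (0, 120 and 320 mg/dL) in the female set 3 culture and at 35.3, 34.9 and 32.1 CPM in the male set 3 culture. It stood at 21.5, 27.2 and 17.98 CPM in the female set 4 culture and at 119, 172 and 143 CPM in the male set 4 culture. In set 5 it stood at 500, 820 and 857 CPM in the female and at 125, 161 and 136 CPM in the male culture. The female set 5 culture was above every other library at each dose and the male cultures of sets 4 and 5 formed the next level, with no overlap with set 3 or with the female set 4 culture. The mean of the highest culture was 32.7 times that of the lowest.

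**Figure D1:**
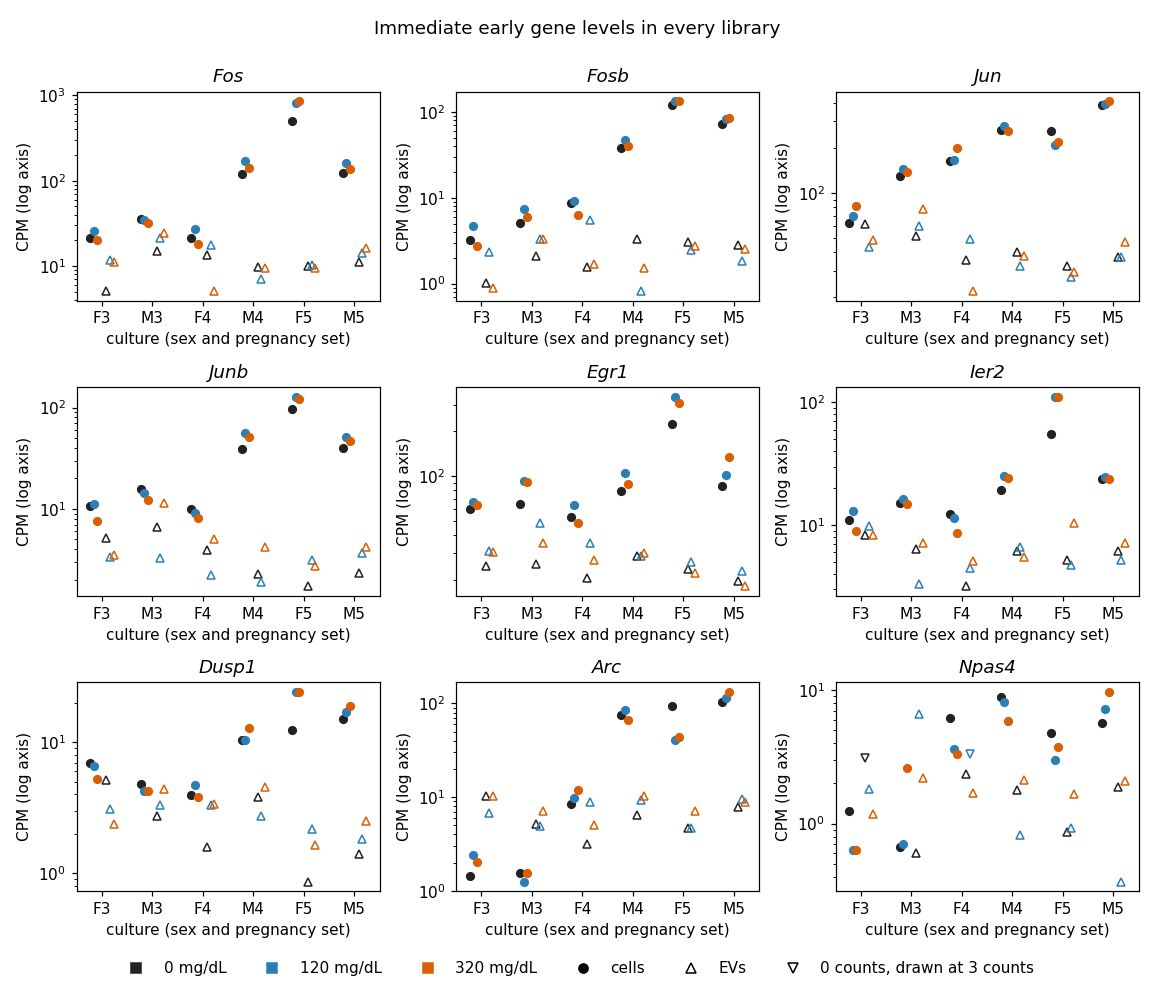
CPM (log axis, scaled by TMM) of each gene in every library, by culture (F female, M male, with the pregnancy set), dose (colour) and source (filled circles cells, open triangles EVs). The 3 cell libraries of a culture lie close together, cultures differ by up to 81.6 times (Arc), and EV culture means differ by at most 3.15 times (Npas4). Npas4 had no count in 2 EV libraries, drawn at the level of 3 counts.

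Arc, the synaptic capsid-like protein, had the widest range. It was measured in cells at 1.44, 2.40 and 2.01 CPM in the female and 1.53, 1.25 and 1.54 CPM in the male culture of set 3, and at 8.53, 9.68 and 11.9 CPM in the female culture of set 4. The male set 4 culture had 74.4, 84.7 and 65.9 CPM, the female set 5 culture 94.8, 40.2 and 43.4 CPM and the male set 5 culture 104, 115 and 133 CPM. The culture means thus spanned from 1.44 to 118 CPM, an 81.6-fold range, and the 2 cultures of set 3 lay below all the others.

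The other AP-1 genes also differed between cultures, but not all in the same order. The culture mean of Fosb ran from 3.57 ± 1.02 CPM (SD of 3 doses, female set 3) to 128 ± 7.16 CPM (female set 5), a 36.02-fold range, and that of Junb from 9.15 ± 0.953 CPM (female set 4) to 116 ± 16.3 CPM (female set 5), a 12.7-fold range. Jun had its highest culture elsewhere, with 396 ± 10.9 CPM in the male set 5 culture against 71.6 ± 9.62 CPM in the female set 3 culture (5.54-fold), and 229 ± 26.5 CPM in the female set 5 culture. Egr1 ranged from 54.6 ± 7.65 to 291 ± 61.0 CPM, Ier2 from 10.8 ± 1.99 to 92.6 ± 32.3 CPM and Dusp1 from 4.18 ± 0.477 to 20.3 ± 6.78 CPM, each lowest in the female set 4 and highest in the female set 5 culture. Npas4 ranged from 0.837 ± 0.354 CPM (female set 3) to 7.59 ± 1.57 CPM (male set 4).

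Differences among the 6 cultures in cells passed edgeR's quasi-likelihood F test (5 degrees of freedom, dose term, Benjamini-Hochberg adjusted p under 0.05 over all genes tested) for 9 of 9 genes, against 68.0% of 18725 genes tested, so the calls alone do not set these genes apart. Adjusted p ran from 9.9e-11 (Fosb) to 0.00017 (Npas4). The test takes the 3 libraries of a culture, 1 at each dose, as its replicates. Its p-values thus measure the spread between the libraries of one culture after the dose term. The size of the ranges is a description: on the log2 scale the highest and lowest culture means differed by 2.21 (Dusp1) to 6.33 (Arc), against a median of 0.91 over 15281 genes. A range as large was found in 0.0785% of those genes for Arc, 0.170% for Fosb, 0.209% for Fos, 1.14% for Junb, 1.94% for Npas4, 2.43% for Ier2, 5.42% for Jun, 5.96% for Egr1 and 7.74% for Dusp1. Culture accounted for 98.6% of the sum of squares of log2 CPM of Fos in cells and dose for 0.721%, against medians of 76.8% and 2.34% over all these genes.

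**Figure D2:**
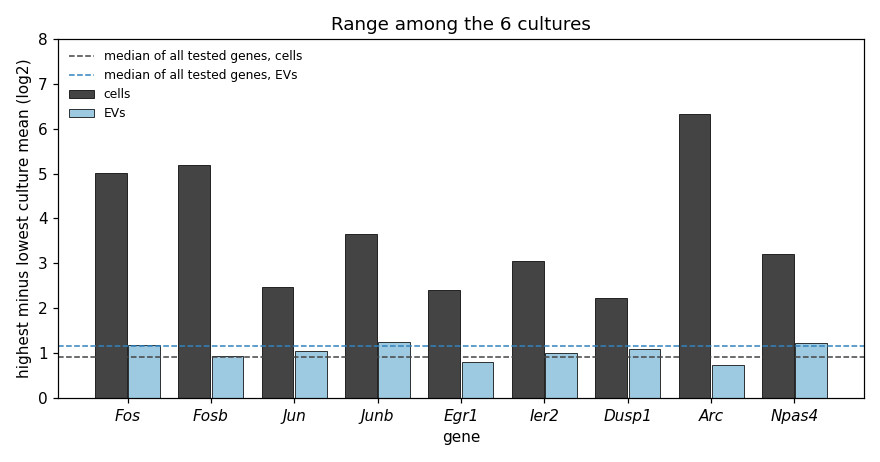
Difference between the highest and the lowest culture mean of log2 CPM for each gene, in cells (dark bars) and EVs (light bars), with the medians over 15281 genes as dashed lines. In cells every bar (2.21 to 6.33) stands above the median of 0.91, and in EVs the bars (0.72 to 1.24) lie near the median of 1.15.

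Marker levels also differed between cultures. The summed level of the neuron markers in cells (median of 3 doses) was 473 CPM in the male set 3, 561 in the female set 4, 651 in the female set 3, 667 in the male set 5, 783 in the female set 5 and 911 CPM in the male set 4 culture. Npas4 did not follow that order, with 7.59 ± 1.57 CPM in the male set 4, 7.49 ± 2.05 CPM in the male set 5 and 3.81 ± 0.886 CPM in the female set 5 culture. Stem cell markers were highest in the set 3 cultures (3722 CPM in the female and 3535 CPM in the male), followed by the female set 4 (3195), male set 4 (2962), male set 5 (2914) and female set 5 (2747 CPM) cultures. Astrocyte markers ran from 139 CPM (female set 3) to 589 CPM (male set 5), oligodendrocyte lineage markers from 72.4 CPM (male set 3) to 178 CPM (female set 5), and meningeal and mural markers from 0.718 CPM (male set 3) to 2.60 CPM (female set 5). Their part in the culture differences was not tested.

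EV levels showed little of the culture differences seen in cells. Fos in EVs had a lowest value of 5.09, a median of 11.3 and a highest value of 24.6 CPM over 18 libraries, which rest on 3 to 50 counts. Culture means of Fos in EVs ran from 8.75 ± 1.44 CPM (male set 4) to 20.4 ± 4.82 CPM (male set 3), and the female set 5 culture, highest by far in cells, stood at 9.85 ± 0.460 CPM. The ranges in EVs on the log2 scale were 0.72 (Arc) to 1.24 (Junb), against a median of 1.15 over the same 15281 genes. Culture differences in EVs passed the same F test for 4 of the 8 genes tested, Jun (adjusted p = 0.011), Fos (0.022), Junb (0.025) and Egr1 (0.028), against 50.3% of 13193 genes. For those 4 genes the male set 3 culture was highest, and 0 of the 6 genes still tested passed without set 3 or without set 5. Counts in EVs were few for several genes, with medians of 5 for Fosb, 6 for Dusp1, 9.5 for Junb and 3 for Npas4. Npas4 was at 0 counts in the female set 3 control and in the female set 4 library at 120 mg/dL, which allows up to 3.08 and 3.32 CPM, counting error only.

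The effect of ethanol on these genes was asked in cells and in EVs with the culture as a block. In cells 0 of 9 genes passed the threshold at 120 against 0 mg/dL, at 320 against 0 mg/dL or at 320 against 120 mg/dL (edgeR, adjusted p). Over all 17792 genes tested, 0%, 0.0393% and 0% passed in the same order, and 444, 1525 and 633 genes had an unadjusted p under 0.05. The same was so for 3 of the 9 genes at 120 mg/dL, for 1 at 320 mg/dL and for 1 between the doses. DESeq2 also called 0 of 9 in each, and 4, 94 and 3 genes over the whole table.

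Egr1 in cells had the smallest unadjusted p at 120 mg/dL. Its control libraries had a lowest value of 52.4, a median of 71.7 and a highest of 224 CPM, those at 120 mg/dL had 63.1, 97.1 and 342 CPM and those at 320 mg/dL had 48.3, 89.8 and 308 CPM. The groups overlap, but within cultures Egr1 was higher at 120 than at 0 mg/dL in 6 of 6 cultures and at 320 mg/dL in 5 of 6. The fitted log2 differences were 0.36 ± 0.10 (SE; adjusted p = 1.00, unadjusted p = 0.0034) and 0.30 ± 0.10 (adjusted p = 0.42, unadjusted p = 0.012). Fos was 0.36 ± 0.11 higher at 120 mg/dL (adjusted p = 1.00, unadjusted p = 0.0062), with 5 of 6 cultures above their control. Fosb was 0.28 ± 0.10 higher at 120 mg/dL (adjusted p = 1.00), in 6 of 6 cultures, and 0.25 ± 0.10 lower at 320 than at 120 mg/dL. These log2 differences were small beside the range of 5.01 in Fos between cultures.

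The remaining genes had no unadjusted p under 0.05 in cells. At 120 mg/dL the 9 log2 differences ran from -0.38 to 0.36, with a median of 0.17 against -0.01 over all genes tested and 7 of 9 above 0. At 320 mg/dL they ran from -0.05 to 0.30, with a median of 0.09 against -0.01. Between the doses Junb and Ier2 were lower at 320 than at 120 mg/dL in 6 of 6 cultures (exact sign-change test, p = 0.03125 for each, two-sided, the smallest p that 6 cultures allow), and neither passed in edgeR. That smallest p was reached in 6 of the 54 exact tests made over genes, sources and dose pairs. These tests were made for the 9 genes only, and the dose pairs share libraries. The count thus has no share over all genes to be set against, and no conclusion is drawn from it. Of the 6 cultures the female set 5 culture rose most in Fos, from 500 to 820 and 857 CPM, and in Ier2, the small nuclear protein, from 55.3 to 112 and 111 CPM. It also rose most in Dusp1, from 12.5 to 24.15 and 24.24 CPM, whereas its Arc went from 94.8 to 40.2 and 43.4 CPM. These are single libraries of 1 culture and were not tested.

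**Figure D3:**
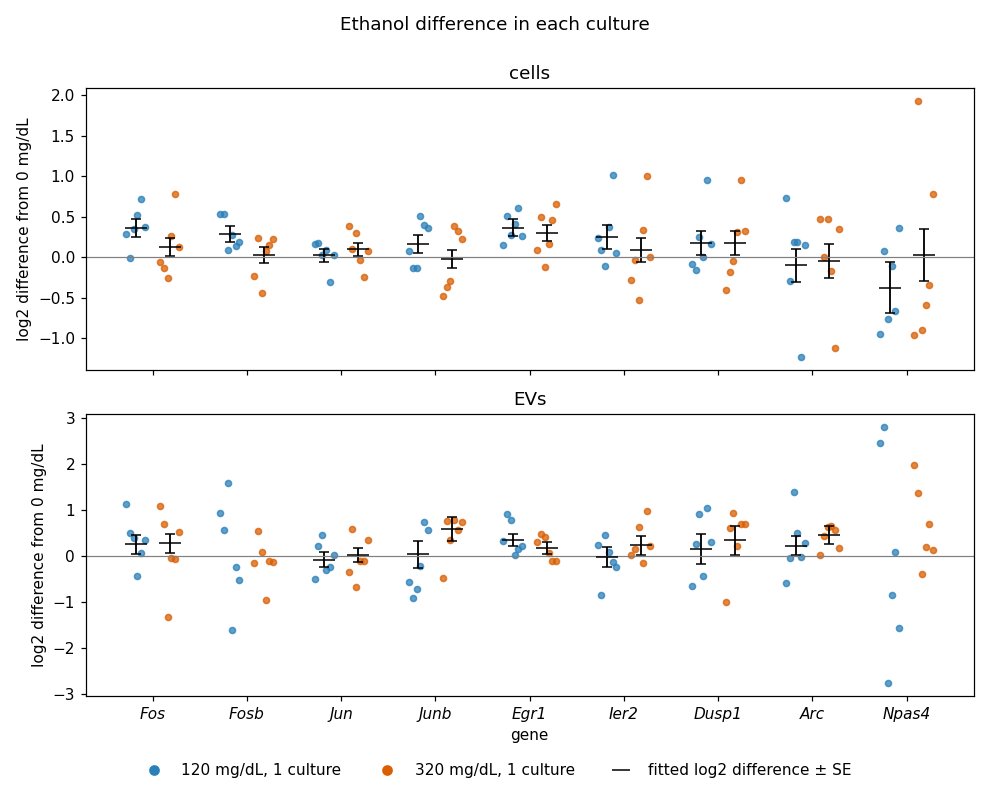
Log2 difference from 0 mg/dL of each gene in each of the 6 cultures (points, blue 120 and orange 320 mg/dL) with the fitted difference ± SE (black), in cells (top) and EVs (bottom). Fitted differences lie between -0.38 and 0.58, and Fosb and Npas4 were not fitted in EVs, where they did not pass the filter on low counts.

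In EVs 7 of the 9 genes passed the filter on low counts, and 0 of 7 passed the threshold at any dose pair, against 0.00842% (120 against 0 mg/dL), 0.0842% (320 against 0 mg/dL) and 0% (320 against 120 mg/dL) of 11880 genes. Unadjusted p values were under 0.05 for 1, 2 and 0 of the 7 genes and for 744, 1410 and 438 of all genes, and DESeq2 called 13, 267 and 2 of all genes and 0 of the 2, 2 and 9 of the immediate early genes to which it gave an adjusted p. Egr1 had a lowest, median and highest value of 19.5, 24.2 and 28.7 CPM in control EVs, 22.8, 30.0 and 48.1 CPM at 120 mg/dL and 18, 28.6 and 35.5 CPM at 320 mg/dL. The first 2 groups overlap, and each of the 6 cultures was higher at 120 mg/dL than at 0, as in cells (log2 difference 0.35 ± 0.13, adjusted p = 0.79, unadjusted p = 0.015). In the male set 4 culture the log2 difference of Egr1 was only 0.011. Arc at 320 mg/dL was 0.45 ± 0.20 above control (adjusted p = 0.39), higher in 6 of 6 cultures. Its log2 difference was only 0.012 in the female set 3 culture. In the female set 4 culture it rested on 4 counts at 0 and 3 counts at 320 mg/dL. Junb at 320 mg/dL was 0.58 ± 0.27 above control (adjusted p = 0.41), higher in 5 of 6 cultures. Junb rested there on 3 to 21 counts a library, and its highest value, 11.5 CPM in the male set 3 culture, stood far from the next. All 7 fitted differences were above 0 at 320 mg/dL, between 0.02 and 0.58, with a median of 0.27 against 0.01 over all genes. The cultures were less uniform at that dose. Jun was higher than control in 2 and lower in 4 cultures, and Fos higher in 3 and lower in 3. Egr1 was higher in 4 of 6, and Ier2 and Dusp1 in 5 of 6. Scaling by library totals moved the median of all genes to -0.26 at 120 and -0.24 at 320 mg/dL, and with it Egr1 at 120 mg/dL to 0.12, Arc at 320 mg/dL to 0.21 and Junb at 320 mg/dL to 0.37.

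EVs were compared with cells over 18 and 18 libraries with terms for sex and dose. All 9 genes were lower in EVs (adjusted p from 1.3e-12 to 0.00087), against 80.5% of 15281 genes called in either direction and 42.2% called lower in EVs. This fit takes the libraries of a culture as independent, so its p-values count more replicates than the 6 cultures. Among the AP-1 genes the log2 differences were -4.28 ± 0.60 for Fosb, -3.72 ± 0.53 for Fos, -3.40 ± 0.43 for Junb and -2.28 ± 0.20 for Jun. They were -2.10 ± 0.32 for Ier2, -2.03 ± 0.23 for Egr1, -1.96 ± 0.30 for Dusp1, -2.47 ± 0.58 for Arc and -1.54 ± 0.41 for Npas4. The median of all genes was -0.08, and 0.321% of genes had a value as low as that of Fosb, 0.668% as that of Fos, 0.910% as that of Junb and between 2.96% and 12.2% as those of the other 6. Scaling by library totals in place of TMM moved the median of all genes to -0.88 and the 9 values to between -5.08 and -2.32, with the same direction. Markers of other cells also differed between the sources: the summed level (median of 18 libraries) was 24.4 CPM in EVs against 3.58 CPM in cells for endothelial markers, 8.95 against 4.31 CPM for microglia and blood markers, 321 against 659 CPM for neuron markers and 1137 against 3055 CPM for stem cell markers. Their part in the result was not tested.

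These differences took different sizes in different cultures. Without set 5 the log2 differences were between -2.65 and -0.95, and Arc (-1.10, adjusted p = 0.17) and Npas4 (-1.13, adjusted p = 0.083) no longer passed. Without set 4 Npas4 did not pass either (-1.15, adjusted p = 0.060). Without the female set 5 culture alone Fos stood at -2.23, and 9 of 9 genes passed. With counts summed over doses and the culture as a block 8 of 9 passed, and Arc did not (-1.77, adjusted p = 0.11).

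**Figure D4:**
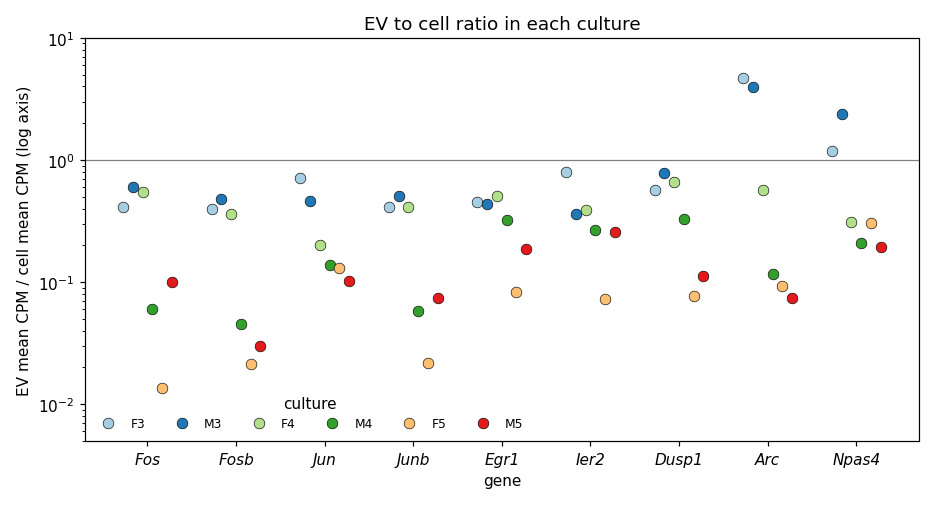
Ratio of the mean CPM in EVs to that in cells of each gene in each culture (log axis; means of 3 doses; F female, M male, with the pregnancy set). The line marks equal levels. Fos ratios run from 0.0136 to 0.599, and Arc lies above the line in both cultures of set 3 (4.68 and 3.99) and below it elsewhere.

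Fos in cells was 73.7 times its EV level in the female set 5 culture, 16.5 times in the male set 4 and 10.1 times in the male set 5 culture, and 1.67 to 2.42 times in the other 3. For Fos the female set 5, male set 4 and male set 5 cultures had the highest levels in cells and the lowest EV to cell ratios. The cell level is the denominator of the ratio, and culture means of Fos in EVs ran only from 8.75 to 20.4 CPM. This order thus restates the levels in cells. The EV to cell ratio differed among the 6 cultures (edgeR, location by culture interaction with 5 degrees of freedom, chosen after seeing the data) for 9 of 9 genes, against 47.5% of 21333 genes tested, with adjusted p of 3.6e-12 for Fos, 1.1e-11 for Arc, 1.1e-09 for Junb and 0.025 for Npas4. Its replicates are the 3 libraries of a culture in each source, so these p-values measure the spread within cultures. Among the 9 genes, Arc was the one with a higher level (CPM) in EVs than in cells in a whole set with no overlap. In the female set 3 culture its EV libraries had 10.3, 6.72 and 10.4 CPM and its cell libraries 1.44, 2.40 and 2.01 CPM, and in the male set 3 culture the EV libraries had 5.15, 4.98 and 7.10 CPM and the cell libraries 1.53, 1.25 and 1.54 CPM. These EV values rest on 3 to 35 counts, and by library totals the ratios were 3.20 and 2.39 in place of 4.68 and 3.99. In the 4 other cultures Arc was between 1.76 and 13.5 times as high in cells. Culture means of Arc in EVs ran only from 5.52 CPM (female set 5) to 9.12 CPM (female set 3), while in cells they were lowest in the cultures of set 3. Npas4 also had a ratio above 1 in both cultures of set 3 (1.19 and 2.36), on 0 to 7 counts in EVs, and by library totals the first of these was 0.749. The other 7 genes were lower in EVs in all 6 cultures. Among the further immediate early genes described below, some also had higher culture means in EVs than in cells in both cultures of set 3. Fosl2 had 41.9 against 11.9 CPM (female) and 86.0 against 19.2 CPM (male), and Sik1 12.6 against 4.49 and 22.4 against 3.30 CPM. Others were lower in EVs there, such as Klf6 (29.8 against 71.6 and 28.8 against 71.6 CPM). These genes are examples, chosen after their values were seen.

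Whether ethanol changed the EV to cell ratio was asked in one model over both sources. The ratio changed for 0 of 9 genes at 120 and at 320 mg/dL, against 0.0107% and 0% of 18728 genes tested (edgeR), with an unadjusted p under 0.05 for 0 and 1 of the 9 and for 627 and 1006 of all genes. DESeq2 called 2 and 60 of all genes, and 0 of the 9 and 3 of these genes to which it gave an adjusted p. The smallest p was that of Junb at 320 mg/dL (0.55 ± 0.26, adjusted p = 0.93).

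Female and male cultures were compared with counts summed over doses, 3 cultures against 3. In cells 0 of 9 genes passed, against 0.0334% of 20972 genes, and in EVs 0 of 9, against 0% of 14847 genes (edgeR, and 2229 genes at an unadjusted p under 0.05 in EVs but none of the 9 genes in either). DESeq2 called 175 genes over the whole table in cells and 28 in EVs, and 0 of the 6 and 9 of these genes to which it gave an adjusted p. Fos was 1.15 ± 1.34 higher in female cells on the log2 scale (adjusted p = 0.94), a value that set 5 decided, since it was -2.03 without set 5. The cultures of a set did not order by sex, the female being higher in Fos in set 5 and the male in sets 3 and 4. The difference of the 320 mg/dL effect between sexes was called for 0 of 9 genes in cells and 0 of 7 in EVs, against 0% of 17792 and 0% of 11880 genes, with 3318 and 445 genes at an unadjusted p under 0.05, and DESeq2 called 118 and 1 genes over the whole table and 0 of the 6 and 9 to which it gave an adjusted p. Npas4 in cells was the one gene with an unadjusted p under 0.05 (-1.46 ± 0.54 for female minus male, adjusted p = 0.22; no adjusted p from DESeq2).

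Within cultures the genes did not all move together. Over the 18 cell libraries, with each culture's mean subtracted, the 5 genes of 17792 whose log2 CPM was most like that of Fos were Prkcz (Pearson r = 0.87), Ier2 (0.86), Plau (0.84), Klf15 (0.84) and 1110015O18Rik (0.83). For Egr1 they were Padi2 (0.87), Mapk8 (0.87), Abhd12 (0.86), Slc43a2 (0.85) and Hlcs (0.85). Of the other 8 genes, Junb (0.74), Dusp1 (0.74), Egr1 (0.64) and Fosb (0.61) had positive r with Fos, and Jun (-0.49), Arc (-0.46) and Npas4 (-0.24) negative r. Without the subtraction all 8 were positive, from 0.50 for Npas4 to 0.99 for Junb. Of the 5 genes most like Fos, Plau, with a mean of only 0.39 CPM in cells, then had r = -0.68. The others then had 0.96 (Ier2), 0.32 (Klf15), 0.24 (Prkcz) and 0.20 (1110015O18Rik). These libraries share cultures and were scaled together, and the coefficients are a description.

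The order of the cultures was also described for other immediate early genes, without a test. Among 23 further immediate early transcription factors, the lowest culture was a set 3 culture for 20, and the highest was the male set 5 culture for 9, the female set 5 culture for 8 and the male set 4 culture for 3. Over all 17792 genes tested in cells, a set 3 culture was lowest for 36.4%, and the male set 5, female set 5 and male set 4 cultures were highest for 15.6%, 20.5% and 12.7%. The median level of the 23 was 5.22 CPM in the male set 3 culture, 11.9 and 12.2 CPM in the female cultures of sets 3 and 4 and 30.1 to 49.9 CPM in the other 3. Of 27 further immediate early effectors and feedback genes, 24 had a set 3 culture lowest and 16 the male set 5 culture highest. In EVs the medians of both lists lay between 5.90 and 9.99 CPM in all 6 cultures, but some genes differed widely there. Nr4a1, an orphan nuclear receptor, ran from 6.79 CPM (male set 4) to 113 CPM (female set 4) in EVs. Csrnp1 ran from 11.5 to 127 CPM and Egr3 from 3.05 to 50.6 CPM between the same 2 cultures. These 3 genes were chosen after their values were seen. The female set 4 culture was also highest in EVs for 30.4% of all 17792 genes, the largest share of any culture. Its EV libraries held only 0.975 M to 1.55 M counts. Zfp36 was listed at 0 in every library. Its span meets Gm44710 on the opposite strand, and whether its reads were lost in counting was not tested, so its expression is not assessed here.

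No gene of these lists was called for ethanol, in cells or in EVs. Between EVs and cells 42.2% of all genes were called lower and 38.4% higher in EVs, and 60.7% and 22.5% by library totals. These calls come from the fit that takes the libraries of a culture as independent. Of the further lists, 20 of the 23 transcription factors were lower in EVs and 1 was higher (median log2 difference -1.90 against -0.08 over all genes), with Egr2 (-4.19 ± 0.57), Fosl1, a further Fos family member (-2.98 ± 0.40), and Klf6 (-2.89 ± 0.24) the largest of those lower in all 6 cultures. Of 26 effectors and feedback genes tested 21 were lower and 2 higher (median -1.73), led by Ptgs2, the inducible cyclooxygenase (-4.26 ± 0.78), Nfkbiz (-3.96 ± 0.33) and Sgk1 (-3.89 ± 0.33), while Dusp2 was higher (1.65 ± 0.33). The upstream regulators and decay factors were mixed, with shares nearer to those of all genes. Of 32 MAP kinase, serum response factor and CREB pathway genes 15 were lower and 8 higher (median -0.21). Rps6ka3 (-1.81 ± 0.18), Mef2a (-1.66 ± 0.18) and Mapk8, the JNK1 kinase (-1.59 ± 0.10), were lower in EVs, and Rps6ka2, a kinase downstream of ERK (3.21 ± 0.16), Crtc1, a CREB coactivator (2.02 ± 0.14), and Elk4, a partner of the serum response factor (1.95 ± 0.12), were higher. Of 23 decay factors for AU-rich messages 12 were lower and 6 higher (median -0.34). Tial1 (-2.22 ± 0.13), the deadenylase subunit Cnot7 (-1.85 ± 0.08) and the exosome component Exosc3 (-1.75 ± 0.16) were lower, and the decapping enzyme Dcp2 (1.57 ± 0.14), Cnot6 (0.81 ± 0.09) and Hnrnpd (0.54 ± 0.08) were higher. Scaled by library totals, which lowered all values, 24 and 4 of the 32 pathway genes and 21 and 1 of the 23 decay factors were lower and higher, so the counts of those 2 lists moved with the scaling, as did those of all genes, while their medians stayed below 0. For the further transcription factors and effectors the counts lower in EVs were 21 of 23 and 24 of 26 by that scaling.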

How the data were processed

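RNA from EVs and from the cells that secreted them was depleted of ribosomal RNA and sequenced. The authors trimmed and deduplicated reads, aligned them to mm39 with STAR and used HTSeq to assign them to genes; whole counts, not normalized, were deposited for 40205 features. How strand was handled is not given in the sources used here.

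Counts were analysed as deposited with edgeR 4.0.16 in R 4.3.3: filterByExpr (minimum count 10, minimum total count 15), TMM scaling and quasi-likelihood F tests, p being adjusted by Benjamini-Hochberg over all genes tested. SEs are the absolute log2 difference divided by the square root of F. Ethanol was tested over the 18 libraries of a source with the culture as a block, EVs against cells with sex and dose terms, the ratio with a location by culture term, and sex on counts summed over doses. CPM are scaled by TMM over 36 libraries, and log2 CPM used a prior count of 1. DESeq2 1.42.0 and other scalings, filters, blocks and samples were alternatives. The culture tests, and the fits without the female set 5 culture, were chosen after seeing the data. The fits were tested on simulated data. The p-values of sex rest on 3 cultures a group.

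Libraries of a culture deviated together from their dose means, with correlations from 0.530 to 0.742 (120 mg/dL) and 0.414 to 0.656 (320 mg/dL) with the control library in cells, and from 0.151 to 0.629 and 0.159 to 0.631 in EVs, all 6 pairs over 0.1 in each. The pairing comes from the labels, since the libraries of a culture share their cells.

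The genes and the lists were chosen with earlier results of these data known. The rule for named genes was all 9 genes in each comparison, the 3 largest changes in each direction of each further list among those called and of one direction in all 6 cultures, with marker lists given as sums, and the 5 genes most like Fos and Egr1. Gene models came from GENCODE on GRCm39 by symbol, found for 31923 features.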

Additional observations from a re-analysis of the deposited data

Results flagged for a closer look

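In each group of 6 cultures (1 source at 1 dose) the highest and the lowest culture were set against the others by the gap to the nearest culture over the whole range, with Dixon's 95% critical value as the limit. Of 54 groups 12 passed. The limit's rate of about 1 in 20 holds for independent, normally distributed values. These groups share the same 6 cultures and the CPM are skewed, so the count cannot be compared with that rate. In 10 of the 12 the culture that stood apart was the female set 5 culture in cells: Fos at 500.1 CPM (0 mg/dL), 820 CPM (120 mg/dL) and 857 CPM (320 mg/dL), Egr1 at 224, 342 and 308 CPM (308.5 CPM at 320 mg/dL), Ier2 at 55.3, 112 and 111 CPM, and Junb at 97.9 CPM in the control. The female set 5 culture stood apart in the control as well as at both doses. In EVs, where that culture did not stand apart, the male set 3 culture did for Junb at 320 mg/dL (11.5 CPM, 21 counts) and for Npas4 at 120 mg/dL (6.64 CPM, 4 counts).

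The difference between EVs and cells varied among the 6 cultures for 9 of 9 genes by the interaction test (edgeR), against 47.5% of 21333 genes tested. The test takes the 3 libraries of a culture in each source as its replicates, so its p-values measure the spread within cultures. The adjusted p values were 3.6e-12 for Fos, 1.1e-11 for Arc, 1.1e-09 for Junb, 4.3e-09 for Jun, 4.4e-09 for Egr1, 4.0e-08 for Fosb, 3.2e-07 for Ier2, 2.9e-06 for Dusp1 and 0.025 for Npas4.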

How the results depend on the processing

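No gene was called for ethanol, for the EV to cell ratio or for sex under any alternative that was run, although DESeq2 gave no adjusted p to 7 of the 9 genes for both doses against control in EVs. All 9 genes were lower in EVs than in cells with median-of-ratios factors, scaled by totals, unfiltered, over the control libraries alone and with the pairs of EV and cell libraries as a replicate block (9 of 9). Leaving out a pregnancy set gave 7 to 9, and DESeq2 gave 8, Fos having no p there. Thinned to the smallest total of 959217 counts, 5 of 9 genes were left after the filter and all 5 passed. Culture differences in cells passed for 9 of 9 genes under every alternative run. In EVs they passed for 0 to 4 genes without a set, and the EV to cell difference among cultures for 7 to 9. Fos between sexes in cells ran from -2.03 (without set 5) to 1.94 (without set 4), and reversed also with the pregnancy set as a replicate block (-0.48), the cause of the second not tested. With counts summed over doses and the cultures as a replicate block, Arc was lost between EVs and cells (8 of 9). No other block, added or removed, changed a call. Of 951 single values under an alternative 110 had the opposite sign, and 0 of these had passed the threshold in either fit. EV libraries held at most 5.51 M counts, so Fosb, Junb, Dusp1 and Npas4 rest on a few counts each there.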
